A study of Mus musculus with 48 samples.

Results

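The 10 genes described here are *Rara*, *Rarb*, *Rarg*, *Rxra*, *Crabp1*, *Crabp2*, *Stra6*, *Aldh1a2*, *Cyp26a1* and *Cyp26b1*, which encode receptors for retinoic acid and proteins that take up, carry, make and break down this ligand. Accessible chromatin around them was taken from ATAC-seq peaks of P19 cells, a mouse embryonic teratoma line, in 4 signalling states. Every peak that lay within 50 kb of a RefSeq transcription start site (TSS) of a member gene was included, on the mm10 assembly (RefSeq GRCm38.p6 has the same chromosomes). Peaks of the 4 lists that overlapped by at least 1 bp were joined into regions, and 154 of 287329 regions met this rule. Regions are numbered along the chromosome for each gene (Rarb_9 is the ninth region of *Rarb*).

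In the inhibited state, cells were kept overnight in 10 µM SB-431542, which blocks the type I receptors through which NODAL and Activin act, and after a wash for 1 h more in the inhibitor. In the acute and prolonged states, the same overnight inhibition was washed out and 20 ng/ml Activin was given for 1 h or 8 h. Untreated cells signalled through the NODAL and GDF3 that they produce themselves. The labels name no added retinoic acid in any state. The labels list 12 libraries per state from 2 biological replicates, and the authors merged them into 1 peak list per state. Each region therefore has 1 value per state, no spread between replicates can be given, and no difference between states was tested.

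Retinol enters cells through STRA6 and is oxidised in 2 steps to retinoic acid, the last of them by retinaldehyde dehydrogenases such as ALDH1A2. CRABP1 and CRABP2 carry retinoic acid inside the cell, and the cytochromes CYP26A1 and CYP26B1 oxidise it for removal. Retinoic acid receptors bind DNA as partners of retinoid X receptors on direct repeats of a short hexamer, and P19 cells are known for turning into neural cells when they are given retinoic acid.

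Exact matches to sequences that receptors of this family recognise were located first, so that the peaks over them could be described. A site was the hexamer AGGTCA, the hexamer AGTTCA, the hexamer GGGTCA or the hexamer GGTTCA, in direct repeats of any pair of them with 1, 2 or 5 bases between them (DR1, DR2 and DR5), searched on both strands of the genome. No 2 repeats printed here overlap. DR5 repeats lay in 4 member regions, which is 2.60% of the 154 regions against 0.392% of all 287329 regions. Genes and hexamers were both chosen for retinoic acid, so this share is a description and not an independent result. Wider regions hold a repeat more often, and among all regions of like width the share was 1.47% for Cyp26a1_11, 0.789% for Rara_15, 0.611% for Rarb_9 and 0.102% for Cyp26b1_5. They fell over the inner TSS of *Rarb*, over a TSS of *Rara*, in the promoter region of *Cyp26a1* with 2 repeats, and in an intergenic region of *Cyp26b1*. In the RefSeq promoter windows, from 250 bases before to 50 bases after a TSS, DR5 was found in 32 of 32851 windows (0.0974%), and 2 of the 17 windows of member genes held one (*Cyp26a1* and *Rarb*). No window was matched for *Crabp2*.

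The sites are given 5′ to 3′ on the strand of the gene, from the GRCm38.p6 sequence, with the repeat in capitals and 12 bases on either side. They are shown so that each repeat can be set beside the peak that covered it. Positions count from the TSS to the middle of the repeat, and negative ones, here and for regions, lie upstream along the gene.
Rarb_9, DR5 at -45 bp, chr14:16575501-16575541: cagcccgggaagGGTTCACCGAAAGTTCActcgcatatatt
Rara_15, DR5 at -455 bp, chr11:98959996-98960036: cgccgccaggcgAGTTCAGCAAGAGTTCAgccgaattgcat
Cyp26a1_11, DR5 at -24 bp, chr19:37697764-37697804: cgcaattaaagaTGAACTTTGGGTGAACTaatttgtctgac
Cyp26a1_11, DR5 at -1891 bp, chr19:37695897-37695937: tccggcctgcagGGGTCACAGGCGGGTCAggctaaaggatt
Cyp26b1_5, DR5 at 27168 bp, chr6:84566622-84566662: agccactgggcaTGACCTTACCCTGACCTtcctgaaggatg
Crabp2_7, DR2 at -1161 bp, chr3:87947513-87947550: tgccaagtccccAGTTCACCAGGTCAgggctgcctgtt

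The repeats of *Rarb*, *Rara*, *Cyp26a1* and *Crabp2* lay under a peak in all 4 lists, whereas that of *Cyp26b1* lay under a peak of the 1 h Activin list alone, with a -log10 q of 2.33. DR2 was found in 1 member region (0.649%, against 0.778% of all regions) and DR1 in 2, Crabp1_7 and Rxra_4 (1.30% against 0.565%), where it lay under a peak in 1 list each. A match is a match of letters and does not show that a receptor was bound.

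For each region, the highest fold enrichment of its peaks was used. This is a ratio in which the authors' peak caller divided the mean pileup over the peak by the local background of the same merged sample. To compare lists of unequal depth, this value was ranked as a percentile among the 162505 regions that had peaks in every list. The shift of a region is its percentile in 1 of the other states minus that in SB-431542. Shifts of more than 10 points were counted. A second measure, the scaled pileup, was the mean pileup over the peak divided by the lowest background of the list, which follows depth. The pileup was estimated from the deposited fold enrichment and p-value, so it is not independent of the fold enrichment. Where the local background is near the lowest of the list, it nearly repeats the fold enrichment, and a like order of states adds no support. Being a mean, it also varies with the width of the peak. This lowest background was 92.6%, 79.0% and 84.8% of that of SB-431542 for 1 h Activin, 8 h Activin and untreated cells. All 3 signalling states are compared with the same SB-431542 list, so the comparisons are not independent.

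Most regions around these genes that had a peak in any list had one in every list. Of the 154 member regions, 107 (69.5%) had a peak in all 4 lists, against 56.6% of all regions, and 17 (11%) had a peak in 1 list only, against 18.1%. The peaks covered 136 kb around the members in SB-431542, 125 kb in 1 h Activin, 129 kb in 8 h Activin and 131 kb in untreated cells. A total of 14 regions lay over a TSS of a member, 12 over a TSS of another gene only, and 63 were nearest to the TSS of another gene, so a peak within the window need not belong to the member.

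After 1 h of Activin, 13 of the 107 shared member regions were more than 10 points higher than in SB-431542 (12.1%, against 11.3% of all shared regions) and 12 were lower (11.2%, against 12.1%). After 8 h, 12 were higher (11.2%, against 18.7%) and 25 were lower (23.4%, against 18.5%). In untreated cells, 18 were higher (16.8%, against 19.9%) and 29 were lower (27.1%, against 18.8%). The counts at 1 h were thus near those of all regions, whereas at 8 h and in untreated cells falls outnumbered rises among the members. Ranked by the estimated pileup, the lower regions were 15.9% at 8 h (against 15.1% of all shared regions) and 21.5% in untreated cells (against 15.8%), so the excess at 8 h was not seen on that measure. The regions lower in both 8 h Activin and untreated cells numbered 18 (16.8%, against 11%), and those higher in both numbered 8 (7.48%, against 11%). Directly between 8 h and 1 h of Activin, 13 regions were higher at 8 h (against 19.5% of all shared regions) and 29 were lower (against 18.8%). With a -log10 q of at least 5, the regions lower than in SB-431542 were 23.1% at 8 h and in untreated cells. The share of all shared regions was 20.9% in each, so the excess of falls was smaller in that setting.

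The scaled pileup gave the same side for the falls more often than for the rises. Relative to the median of all shared regions, the scaled pileup was lower in 25 of the 25 regions counted as lower at 8 h. In untreated cells it was lower in 28 of the 29 counted as lower. Among all regions counted as lower, these shares were 98.0% and 97.8%, so the falls of the members were near all regions in this respect. The scaled pileup was higher in 9 of the 12 regions counted as higher at 8 h and in 12 of the 18 in untreated cells. Among all regions counted as higher, these shares were 97.9% and 97.6%. The median log2 change of the scaled pileup over the members was -0.21 at 1 h, -0.15 at 8 h and -0.22 in untreated cells, and over all shared regions it was -0.13, -0.05 and -0.05.

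**Figure D1:**
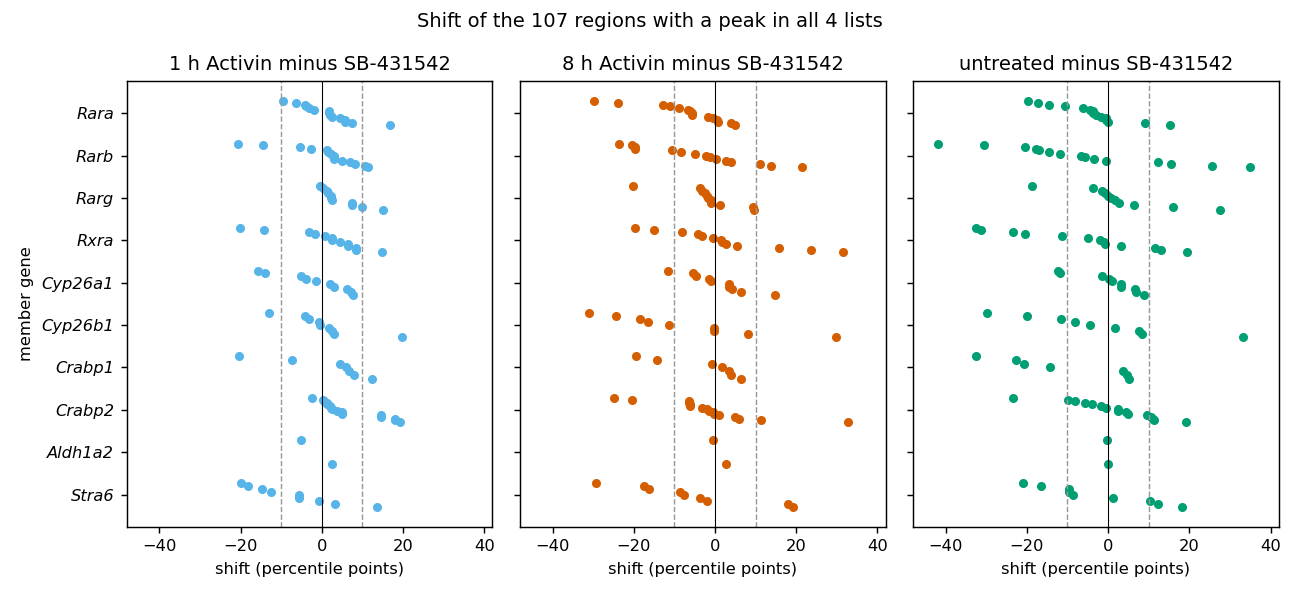
Shift in percentile points of each shared member region, by gene, for 1 h Activin, 8 h Activin and untreated cells against SB-431542; each point is 1 region and dashed lines mark 10 points. At 8 h, 12 points lie beyond the right line and 25 beyond the left line.

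Among the receptors, *Rarb* had the TSS region with the highest fold enrichment, and with the largest range of fold enrichment across states. RARB is the receptor whose gene is itself a classical target of retinoic acid. Rarb_9 (chr14:16574795-16575947) covers the inner TSS with the DR5 repeat given above. Its fold enrichment was 4.46 in SB-431542, 4.40 after 1 h of Activin, 3.72 after 8 h and 3.47 in untreated cells. The scaled pileup, at 20.7, 19.2, 17.8 and 14.8, had the same order. The region was highest under inhibition and lowest under chronic signalling, with a log2 change of the scaled pileup of -0.48 in untreated cells and a width between 1060 and 1153 bp in every list. The shift in percentile was -8.46 points at 8 h and -11.9 in untreated cells.

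The outer TSS of *Rarb* lay in a separate region, Rarb_20 (chr14:17080960-17084718), which held no repeat. It had a fold enrichment of 2.62, 2.78, 2.95 and 2.48 in the order SB-431542, 1 h, 8 h and untreated. Here 8 h Activin was the highest state and untreated the lowest, so the 2 start sites of this gene did not share an order of states. The shift was 10.7 points at 1 h, 11.2 at 8 h and -3.57 in untreated cells. The region was 1 peak in SB-431542 (3610 bp) and at 1 h (2630 bp). It was divided in 2 at 8 h (2131 and 578 bp) and in untreated cells (2164 and 660 bp). The values of Rarb_20 thus cover unlike stretches. By the width-weighted mean of its peaks, the shifts were 10.7, 10.9 and -4.04 points.

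Inside the introns of *Rarb*, single regions moved in opposite directions in untreated cells. Rarb_10, at -2.42 kb from the inner TSS, had a fold enrichment of 2.04, 1.76, 2.08 and 2.90, and its shift of 34.9 points in untreated cells was the highest of the 107 shared member regions. The scaled pileup there was 7.41, 5.41, 7.32 and 8.70, a smaller difference, since the local background in the untreated list was lower too. Rarb_13, at -28.1 kb, had 2.67, 2.35, 2.08 and 1.79, falling by 41.9 points in untreated cells, the lowest shift of the 107. Its values decreased in the order inhibited, acute, prolonged and chronic signalling. The scaled pileup (2.94, 2.53, 2.26 and 1.85) nearly repeats them, since the local background was 1.01 to 1.08 times the lowest of the list. The untreated peak of Rarb_13 was weak, with a -log10 q of 2.45, and 516 bp wide against 275 bp in SB-431542. The part of the width in the lower value was not tested.

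Rarb_8, at 2.23 kb from the inner TSS, had a fold enrichment of 1.87, 1.99, 2.25 and 1.87, and was 21.4 points higher at 8 h with a log2 change of the scaled pileup of 0.54. Rarb_2, at 41.8 kb, was lowest at 1 h (2.95, 2.20, 2.71 and 3.39, a shift of -20.6 points at 1 h), where its peak was 1176 bp wide against 309 to 385 bp in the other lists. The wider peak averages over more of the flanks, and the part of that averaging in the lower value was not tested.

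*Rara*, which encodes the broadly expressed receptor, had 3 regions over its start sites and all 3 stayed within 10 points in every comparison. Rara_11 (chr11:98936023-98938472) had a fold enrichment of 2.56, 2.52, 2.53 and 2.41. Rara_15 (chr11:98959350-98961140), with the DR5 repeat, had 2.07, 2.11, 2.13 and 2.04. The fold enrichment of the 2 DR5-bearing receptor genes thus differed in range, from 2.04 to 2.13 at *Rara* and from 3.47 to 4.46 at *Rarb*. The scaled pileup of Rara_15 was 15.3, 13.3, 14.7 and 12.7, a log2 change of -0.27 in untreated cells. On that measure Rara_15 and Rarb_9 were both highest in SB-431542 and lowest in untreated cells. Rara_16 had 2.24, 2.03, 2.06 and 2.22, and its scaled pileup was highest in SB-431542 (19.3, 16.2, 15.9 and 15.5).

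The lowest shift around *Rara* at 8 h was that of Rara_6, which lies over a non-coding exon of *Cdc6*, a DNA replication gene, and is nearest to the TSS of that gene. It had a fold enrichment of 2.28, 2.09, 1.75 and 2.06 and a shift of -29.9 points at 8 h. The scaled pileup was 4.89, 3.87, 4.58 and 5.64, a log2 change of -0.09 at 8 h and 0.20 in untreated cells, so the 2 measures did not give the same picture there. Rara_13, intronic, reached 5.00 points at 8 h, the highest shift around this gene in that state.

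*Rarg* encodes the remaining receptor of retinoic acid, and the fold enrichment at its start sites stayed within 10 points. Rarg_9 had a fold enrichment of 2.24, 2.28, 2.20 and 2.28, and Rarg_10 had 2.83, 2.64, 2.73 and 2.82. On the scaled pileup, Rarg_9 was highest in SB-431542 (15.6, 12.5, 12.3 and 12.3, a log2 change of -0.34 at 8 h and in untreated cells), and Rarg_10 was lowest at 1 h (8.49, 6.66, 7.76 and 8.28). An intronic region, Rarg_8 (chr15:102242533-102244641), was lower under longer signalling, with 2.00, 1.93, 1.64 and 1.68 and a scaled pileup of 13.8, 10.6, 8.99 and 7.90. An upstream intergenic region, Rarg_11, was highest in untreated cells (2.37, 2.47, 2.59 and 3.25, a shift of 27.7 points). Its scaled pileup (2.59, 2.73, 2.79 and 3.53) nearly repeats this, on a local background of 1.05 to 1.08 times the lowest. Rarg_7, over a coding exon, had 2.85, 3.26, 3.16 and 3.44, but its scaled pileup was below that of SB-431542 in all 3 signalling states.

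*Rxra* encodes the partner of the retinoic acid receptors. Its promoter region Rxra_7 (chr2:27676083-27678025) had a fold enrichment of 2.69, 2.58, 2.16 and 2.34, falling by 19.8 points at 8 h and by 11.5 in untreated cells. Its peak was between 1898 and 1940 bp wide in every list, and the scaled pileup was 4.66, 4.14, 3.83 and 3.61. The 250 bases before the TSS are 81.2% G and C and hold none of the repeats searched. They are given from the RefSeq promoter table, GRCm38.p6, as the promoter of a member with the largest fall at 8 h.
Rxra, chr2:27676951-27677200: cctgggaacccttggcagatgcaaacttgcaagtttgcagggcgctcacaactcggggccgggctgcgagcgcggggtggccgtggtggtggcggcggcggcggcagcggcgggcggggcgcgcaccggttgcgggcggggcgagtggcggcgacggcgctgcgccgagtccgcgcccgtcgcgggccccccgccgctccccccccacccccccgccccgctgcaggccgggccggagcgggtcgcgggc

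Of the 13 shared regions of *Rxra*, 3 were counted as higher and 2 as lower at 8 h (against 18.7% and 18.5% of all shared regions), and 3 as higher and 5 as lower in untreated cells (against 19.9% and 18.8%). Rxra_6, at -5.72 kb, had a fold enrichment of 1.94, 1.67, 2.60 and 2.30 and a shift of 31.5 points at 8 h. The scaled pileup was 2.10, 1.74, 2.91 and 2.48, and the peak was weak in every list but highest at 8 h. Its local background was 1.02 to 1.09 times the lowest of the list, so the scaled pileup nearly repeats the fold enrichment. In SB-431542 the peak was 1106 bp wide, against 353 bp at 8 h. Rxra_11, an intronic region named here after its values were seen, had 3.21, 3.37, 4.75 and 3.76, with a log2 change of the scaled pileup of 0.67 at 8 h, the highest of the 107 regions. In untreated cells the lowest shift was that of Rxra_9, intronic, with 2.46, 2.53, 2.35 and 1.83 and a shift of -32.6 points. The untreated peak of Rxra_9 was weak, with a -log10 q of 2.76. Rxra_13, intronic, was lowest at 1 h (2.82, 2.14, 2.34 and 2.70) and, with the promoter region, was the other one counted as lower at 8 h, with shifts of -20.1 points at 1 h and -15.1 at 8 h.

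Rxra_3 (chr2:27644597-27645458), at -32.2 kb in intergenic sequence, had no peak in SB-431542 or 1 h Activin. It had a fold enrichment of 3.42 (-log10 q 19.2) at 8 h and 2.74 (-log10 q 12.6) in untreated cells. Rxra_2, at -35.9 kb, was present in the same 2 lists only, at 1.95 and 2.26. The absence of a peak says that the signal did not pass the authors' threshold, not that the site was closed.

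**Figure D2:**
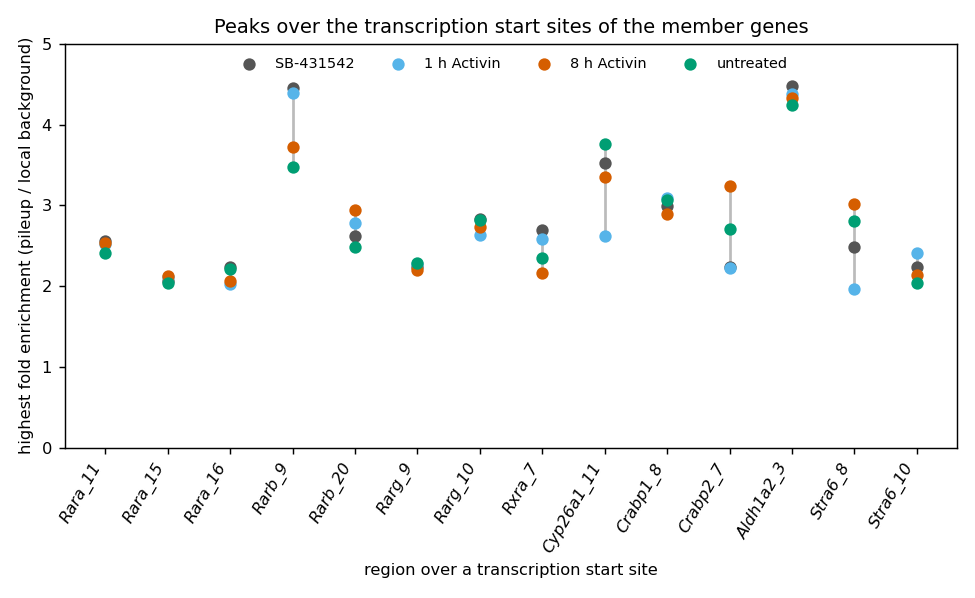
Highest fold enrichment (pileup over local background, linear axis from 0) of the 14 regions over member start sites in the 4 lists; each point is 1 list and grey lines join the lowest and highest state. Rarb_9 is highest in SB-431542 (4.46) and lowest in untreated cells (3.47), whereas the points of Rara_15 and Rarg_9 nearly coincide.

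Across all members, the 14 TSS regions had a peak in all 4 lists, and 10 of them had exactly 1 peak in each. At 8 h, 3 were counted as higher (Rarb_20, Crabp2_7 and Stra6_8) and 1 as lower (Rxra_7), while among 15541 regions over any TSS 3.32% were higher and 6.51% lower. *Cyp26b1* was the only member with no peak over a TSS in any list.

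The retinoic acid carriers differed from each other. Crabp1_8, over the TSS of *Crabp1*, stayed within 10 points, with a fold enrichment of 3.00, 3.10, 2.90 and 3.06. Crabp2_7 (chr3:87946033-87950483), over the TSS of *Crabp2*, had 2.24, 2.22, 3.24 and 2.71, a shift of 32.8 points at 8 h and 19.2 in untreated cells. The peaks themselves show that this value belongs to a different part of the region at 8 h and in untreated cells. In SB-431542 and 1 h Activin, 1 peak of 4282 or 4203 bp spanned the whole region. At 8 h and in untreated cells, the part over the TSS and the DR2 repeat was a peak of its own with 1.99 and 1.87, and a narrow peak of 372 or 784 bp downstream of the TSS carried the 3.24 and 2.71.

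By the width-weighted mean of its peaks, Crabp2_7 shifted by -4.02 points at 8 h and -8.74 in untreated cells. By the scaled pileup, its highest peak was 12.4, 10.2, 11.2 and 11.5, as means over 4282, 4203, 372 and 784 bp, which are unlike stretches. The local background around the peak over the TSS, scaled in the same way, was 5.54 in SB-431542, 4.56 at 1 h, 3.92 at 8 h and 3.85 in untreated cells. The rise of the fold enrichment at *Crabp2* was not seen on either of these measures.

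Among the other regions around *Crabp2*, Crabp2_9, at 9.63 kb, had a fold enrichment of 2.10, 2.29, 1.68 and 1.94, with a shift of -24.8 points and a log2 change of the scaled pileup of -0.77 at 8 h. Crabp2_14, at 34.5 kb and nearest to the TSS of *Nes*, a neural progenitor gene, had 2.60, 3.03, 2.10 and 2.05 and a scaled pileup of 15.4, 15.5, 8.86 and 8.59. Its inhibited and acute states were alike on the scaled pileup and both stood above 8 h Activin and untreated cells. Crabp2_8, over a coding exon, had 2.05, 2.33, 1.94 and 2.25, with the scaled pileup below that of SB-431542 in all 3 other states. Crabp2_15, in the SB-431542 list alone, had a fold enrichment of 1.23 on a background 53.8 times the lowest of the list.

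Upstream of *Crabp1*, 3 regions nearest to the TSS of *Wdr61* had differing orders of states. Crabp1_4 was lowest at 1 h, with 3.07, 2.26, 3.13 and 2.52. Crabp1_5 had 2.81, 3.08, 2.24 and 2.01, a shift of -32.6 points in untreated cells. Its scaled pileup decreased in the order SB-431542, 1 h, 8 h and untreated (5.26, 4.56, 4.24 and 3.38). Crabp1_1 had 2.63, 2.27, 2.78 and 2.11. Crabp1_7, at -5.05 kb and holding a DR1 repeat, had a peak in SB-431542 (2.26) and at 1 h (1.99) and none in the 2 other lists. The repeat itself lay under the SB-431542 peak only.

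*Stra6*, the gene of the retinol transporter, had 2 regions over its start sites that differed. Stra6_8 (chr9:58128518-58129770) had a fold enrichment of 2.48, 1.97, 3.02 and 2.81, and shifts of -20.0 points at 1 h, 17.9 at 8 h and 12.3 in untreated cells. The scaled pileup, at 2.92, 2.13, 3.70 and 3.46, gave the same order. The state after 1 h was thus the lowest and that after 8 h the highest. The 1 h peak was weak, with a -log10 q of 4.21, so no shift was available with a -log10 q of at least 5. The local background was 1.06 to 1.20 times the lowest of the list, so the scaled pileup adds little to the fold enrichment. The peak was 634, 521, 927 and 1253 bp wide in these lists, so the widths differed too, and the widest peak was not the highest. The 250 bases before the first TSS are given from the RefSeq table, as the member promoter with the largest rise at 8 h that did not rest on a divided peak, and they hold none of the repeats searched.
Stra6, chr9:58128838-58129087: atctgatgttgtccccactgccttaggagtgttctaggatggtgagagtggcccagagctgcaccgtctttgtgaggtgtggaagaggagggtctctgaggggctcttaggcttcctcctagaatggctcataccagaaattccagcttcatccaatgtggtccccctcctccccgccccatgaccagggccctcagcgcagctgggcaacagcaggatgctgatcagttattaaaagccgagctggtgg

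Stra6_10, over the inner start sites, had 2.23, 2.41, 2.14 and 2.04. In the introns of *Stra6*, Stra6_14, at 9.60 kb from a TSS, had 3.57, 3.03, 2.40 and 2.63, a shift of -29.4 points at 8 h, and a scaled pileup of 4.67, 3.68, 2.80 and 3.00. Upstream, Stra6_2, in an intron of *Ccdc33*, had 2.27, 2.14, 2.75 and 2.72, and it consisted of 2 narrow peaks in SB-431542 and 1 h Activin and of 1 peak of over 2 kb in the other lists. Stra6_6, at -8.43 kb, was present only at 8 h (2.54) and in untreated cells (2.67). *Stra6* was thus flanked by regions of both kinds.

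*Aldh1a2*, the gene of the enzyme that makes retinoic acid in the early embryo, had 4 regions, the fewest of the members. Aldh1a2_3, over its TSS and that of *Gm3458*, had a fold enrichment of 4.49, 4.38, 4.34 and 4.24. Aldh1a2_2, at -26.8 kb, had 5.58, 4.52, 6.09 and 5.23, with shifts of -5.02, 2.77 and -0.14 points. Neither passed 10 points in any state. Aldh1a2_2 lay between percentiles 87.9 and 95.7, where fold enrichments of 4.52 and 6.09 are few points apart. Its scaled pileup was 6.32, 5.19, 7.19 and 6.05, so a small shift does not mean equal values there. Aldh1a2_1, which was weak, was listed only in SB-431542 (1.72) and at 8 h (2.10).

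The 2 genes of retinoic acid breakdown had different arrangements. Cyp26a1_11 (chr19:37695749-37699269) covers the TSS of *Cyp26a1* and both DR5 repeats. The upstream repeat lay under a narrow peak of 320 to 339 bp with a fold enrichment of 3.52 in SB-431542, 3.35 at 8 h and 3.76 in untreated cells. The repeat next to the TSS lay under a peak with 2.66, 2.59 and 2.50 in these lists. At 1 h both lay under 1 peak of 3370 bp with 2.62. The shift of -15.9 points at 1 h coincided with the joining of the peaks, and by the width-weighted mean it was 1.22 points.

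**Figure D3:**
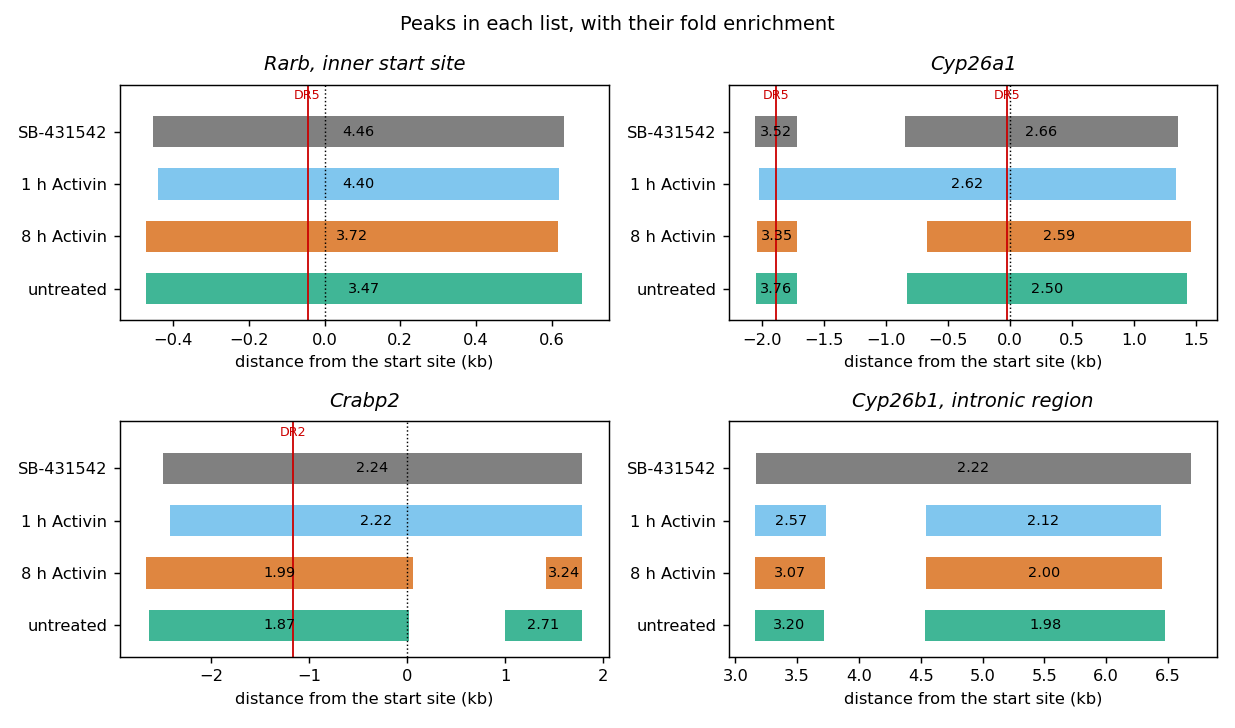
Peaks of the 4 lists at the inner TSS of *Rarb*, at *Cyp26a1*, at *Crabp2* and in the intronic region of *Cyp26b1*, drawn to scale by distance from the TSS in kb along the gene; the number on each bar is its fold enrichment, dotted lines are start sites and red lines are DR5 or DR2 repeats. At *Cyp26a1* the narrow upstream peak is separate in 3 lists and joined to the TSS peak at 1 h, and at *Crabp2* the region is divided at 8 h and in untreated cells.

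Farther from *Cyp26a1*, 2 regions upstream lay within or near *Cyp26c1*, a gene of the same family. Cyp26a1_8, in the promoter of *Cyp26c1* but not over its TSS, had 2.41, 2.17, 2.14 and 2.46. Cyp26a1_10, over a coding exon of *Cyp26c1*, had 1.87, 1.92, 2.13 and 2.03. Downstream, Cyp26a1_13 (chr19:37716112-37716751), 18.6 kb from the TSS, had a peak only at 8 h (3.11, -log10 q 15.1) and in untreated cells (2.23, -log10 q 5.91).

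Around *Cyp26b1*, the region nearest to the TSS and the next one upstream were both highest under inhibition. Cyp26b1_11, at -1.18 kb, was the strongest with a fold enrichment of 5.91 in SB-431542, 4.81 at 1 h, 4.30 at 8 h and 4.46 in untreated cells, and a log2 change of the scaled pileup of -0.71 at 8 h and in untreated cells. Cyp26b1_12 (chr6:84601133-84601917), at -7.62 kb, had 3.82, 2.90, 2.46 and 2.50. Its shifts were -13.0 points at 1 h, -31.0 at 8 h, the lowest of the 107 regions in that state, and -29.9 in untreated cells. The scaled pileup, 4.54, 3.53, 2.87 and 2.82, followed the same course on a local background of 1.10 to 1.19 times the lowest, so it adds little. The peak was between 640 and 767 bp wide in every list.

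Cyp26b1_10 (chr6:84587121-84590651), in an intron at 4.92 kb from a TSS, had the opposite values, with 2.22, 2.57, 3.07 and 3.20 and shifts of 19.8, 29.8 and 33.1 points. This region again was 1 peak of 3527 bp in SB-431542 and 2 peaks in the other lists. The narrow peak of the pair carried the high values, whereas the other had 2.12, 2.00 and 1.98. The scaled pileup of the highest peak was 10.8, 10.3, 9.87 and 9.79, as means over 3527, 578, 567 and 558 bp, which are unlike stretches. By the width-weighted mean the shifts were 5.51, 1.81 and 2.06 points. At 8 h, 5 of the 9 shared regions of *Cyp26b1* were counted as lower and 1 as higher, against 18.5% and 18.7% of all shared regions.

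**Figure D4:**
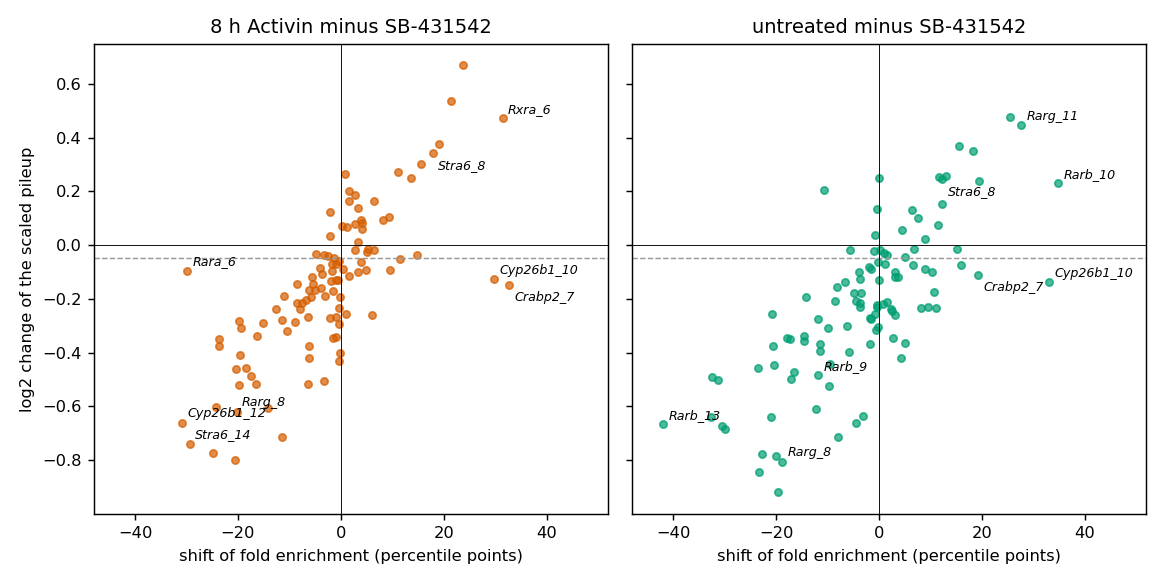
Shift of the fold enrichment in percentile points (horizontal) and log2 change of the scaled pileup (vertical) of the 107 shared member regions, for 8 h Activin and untreated cells against SB-431542; the dashed line is the median of all shared regions (-0.05). Crabp2_7 and Cyp26b1_10 lie far to the right and below the dashed line, whereas Cyp26b1_12, Stra6_14 and Rarb_13 are low on both axes.

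Regions that had a peak in some lists only were spread over all 10 genes. Relative to SB-431542, 5 member regions were gained at 1 h and 10 lost (9.48% and 9.86% of all regions were), 11 were gained at 8 h and 17 lost (8.12% and 17.1%), and 17 were gained in untreated cells and 16 lost (10.6% and 15.6%). Of the 154 member regions this is 3.25% and 6.49% at 1 h, 7.14% and 11% at 8 h, and 11% and 10.4% in untreated cells. A total of 7 regions had a peak at 8 h and in untreated cells alone (4.55%, against 2.65%), namely Rxra_2, Rxra_3, Cyp26a1_13, Stra6_6, Rarg_2, Rarb_15 and Crabp1_6. Another 8 had a peak in SB-431542 and at 1 h alone (5.19%, against 6.5%), namely Rara_8, Rara_17, Rxra_10, Cyp26b1_3, Crabp1_7, Crabp1_10, Stra6_9 and Stra6_12. The highest fold enrichment of the first set was that of Rxra_3 and of the second that of Rxra_10, with 2.70 in SB-431542 and 2.34 at 1 h. By -log10 q, the strongest of the second set was Rara_8 (26.6 in SB-431542).

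The middle 120 bases of 3 distal regions are given on the strand of the gene from GRCm38.p6. The first 2 are those with the highest fold enrichment among the regions of 8 h and untreated cells alone, and the last is the shared region with the largest fall at 8 h. None of the 3 regions holds a DR1, DR2 or DR5 repeat, the FOXH1 motif AATCCACA or the SMAD motif GTCTAGAC. The shorter SMAD-binding element that the authors describe, AGAC or GTCT, was not searched, so nothing is said here of its presence.
Rxra_3, chr2:27644968-27645087: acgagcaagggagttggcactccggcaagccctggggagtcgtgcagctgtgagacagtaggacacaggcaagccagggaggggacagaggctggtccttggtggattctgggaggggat
Cyp26a1_13, chr19:37716372-37716491: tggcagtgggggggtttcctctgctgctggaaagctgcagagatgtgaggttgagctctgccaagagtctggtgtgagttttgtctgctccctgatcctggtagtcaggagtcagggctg
Cyp26b1_12, chr6:84601465-84601584: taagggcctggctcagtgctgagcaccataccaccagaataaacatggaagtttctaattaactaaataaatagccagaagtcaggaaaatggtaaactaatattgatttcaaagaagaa

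FOXH1 and SMAD motifs, which mark the factors of the NODAL/Activin pathway, were searched in all member regions on both strands. Only exact matches of AATCCACA and of GTCTAGAC were counted, not the shorter SMAD-binding element. AATCCACA lay in 3 regions (1.95%, against 3.83% of all regions), Rarb_7, Rarb_19 and Stra6_13. GTCTAGAC lay in 2 (1.30%, against 0.858%), Cyp26b1_8 and Rarg_6. None of these 5 regions was among the largest rises or falls named above. Rarb_7 had a fold enrichment of 2.61, 2.50, 2.51 and 2.42, and its FOXH1 motif lay under a peak in every list but that of 8 h. Cyp26b1_8 had 3.28, 3.17, 3.18 and 3.57, and its SMAD motif lay under a peak at 8 h only. The motif of Rarg_6 lay under a peak in all 4 lists, that of Stra6_13 in all but SB-431542, and that of Rarb_19 in SB-431542 only.

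**Figure D5:**
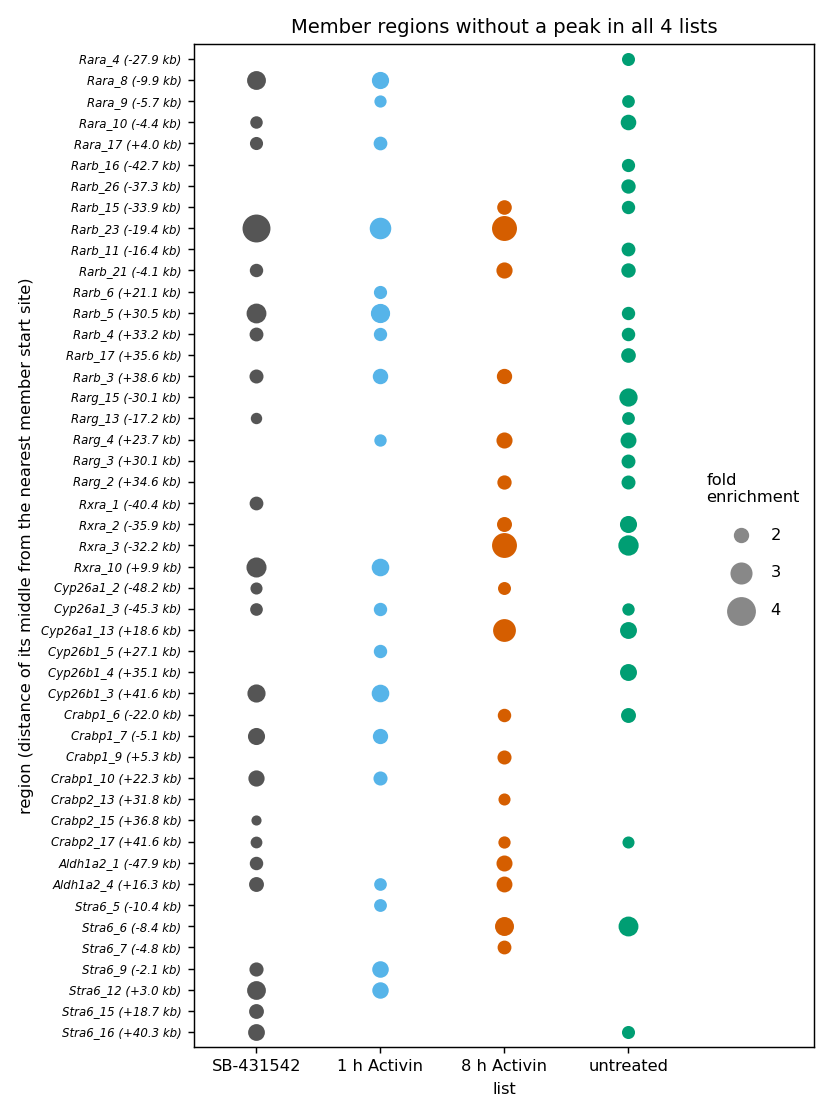
The 47 member regions without a peak in all 4 lists, by gene and by distance of their middle from the nearest member TSS in kb; a dot is a peak and its area grows with the square of the fold enrichment. Rxra_3 and Cyp26a1_13 have dots only under 8 h Activin and untreated, and Rarb_23 has the largest dots and none under untreated.

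The strongest region, by -log10 q, that was not in every list was Rarb_23, at -19.4 kb from the outer TSS of *Rarb* and nearest to the TSS of *Pou5f1-rs6*. It had 3.87 in SB-431542, 2.92 at 1 h and 3.42 at 8 h, and no peak in untreated cells. For *Rara* this was Rara_8, with 2.52 in SB-431542 and 2.28 at 1 h, and for *Cyp26b1* it was Cyp26b1_3, with 2.42 and 2.34. For *Rarg* it was Rarg_13, with 1.42 in SB-431542 and 1.62 in untreated cells.

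Of 24 other genes of the pathway (further retinoid X receptors, dehydrogenases, binding proteins, cofactors and targets), 20 had a peak over the TSS in all 4 lists. At 1 h, 0 were counted as higher and 1 as lower (against 3.11% and 2.29% of regions over any TSS), at 8 h 0 and 1 (against 3.32% and 6.51%), and in untreated cells 0 and 2 (against 3.64% and 7.39%). The largest rise at 8 h was that of *Dhrs3*, a retinaldehyde reductase gene, with 2.31, 2.22, 2.51 and 2.08 (9.32 points). The largest fall was that of *Rxrb*, with 2.74, 2.68, 2.31 and 2.41 (-13.9 points). Within 50 kb of these genes, 37 of 212 shared regions were higher at 8 h and 34 were lower, against 18.7% and 18.5% of all shared regions.

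The identity of the cells was checked against marker promoters. Of 6 genes of embryonal carcinoma and pluripotent cells, 5 had a peak over the TSS in all 4 lists, and *Dppa4* had none. Most promoters of other cell types had peaks as well, and of these only *Alb* and *Myog* had none, so promoter peaks do not separate cell types here. The part of cell composition in the values above was not tested.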

How the data were processed

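ATAC-seq of P19 cells was performed by the authors in 4 states, with 48 labelled libraries, 12 per state from 2 biological replicates. Their methods describe 8 sequenced samples, and how these relate to the labels is not known. According to their methods and processing notes, the authors used cutadapt 1.9.1 for trimming, BWA 0.6.2 for alignment to mm10, Picard for merging the libraries of a state, bedtools 2.26.0, and MACS2 2.1.1.20160309, with no control library, for broad peaks. The deposited fold enrichment is the ratio of a peak's pileup to its local background. The deposited -log10 p-value, and the -log10 q-value used as a score, were obtained by the authors for each peak against its background, and they describe peaks, not differences between states. Total read counts are not in these files, so depth is known only relatively.

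From these lists, regions, percentiles, shifts and counts were computed with Python 3.11.15, pandas 2.3.3, NumPy 2.4.6 and SciPy 1.17.1, and figures were drawn with matplotlib 3.10.9. Local background was solved from the fold enrichment and p-value under a Poisson model, so the scaled pileup is approximate, because MACS2 averages these scores over a peak. Start sites came from 45756 curated RefSeq transcripts of 26180 genes. The calculations were tested on simulated peaks. Named regions were those over a TSS, the largest rise and fall of each gene at 8 h, its strongest region not in every list, those with a repeat, and the 3 largest rises and falls per comparison. Other regions were named as members of a count of at most 8 or after their values were seen. The members, lists and rules were chosen with earlier results of these data known. Alternatives were a -log10 q of at least 5, lists of equal length, a 50% overlap, the width-weighted mean, the estimated pileup, a 10 kb window and the region's middle in the window.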

Additional observations from a re-analysis of the deposited data

How the results depend on the processing

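No paired analysis was possible because the lists merge the replicates of a state, and for the same reason no replicate could be left out. The 12 shares of member regions (higher, lower, gained and lost in 3 comparisons) stayed within 1.5 times with lists of equal length, a 50% overlap, the width-weighted mean and the middle of the region in the window. With a -log10 q of at least 5, gained regions were 0.781% (1 h), 3.91% (8 h) and 7.03% (untreated) (3.73%, 6.7% and 9.4% of all regions), and lost regions in untreated cells 18% (19.8%). In that setting, lower regions were 23.1% at 8 h and in untreated cells (20.9% of all shared regions in each). Higher regions were 12.1% at 8 h and 19.8% in untreated cells (20.4% and 21.8%). By the estimated pileup, higher regions were 0.935% (1 h), 6.54% (8 h) and 7.48% (untreated) (8.61%, 15.3% and 16.5% of all shared regions). Within 10 kb, higher regions were 20.9% of 43 (1 h), 18.6% (8 h) and 25.6% (untreated) (11.3%, 18.7% and 19.9% of all shared regions), so the lower share of rises than among all regions at 8 h and in untreated cells was not seen there. Gained regions were 1.82% at 1 h (9.48% of all regions) and 3.64% in untreated cells (10.6%), and lost regions 3.64% at 1 h (9.86%). Fewer regions were compared in that window, and the other causes were not tested.

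Of 60 shifts of named regions beyond 10 points, 24 stayed beyond 10 points on the same side under each alternative that gave a value, and 9 changed sign in at least 1. By the width-weighted mean, which takes in every peak of a region, the shift was 1.22 for Cyp26a1_11 at 1 h, and for Crabp2_7 -4.02 after 8 h and -8.74 in untreated cells. By the estimated pileup it was 7.0 for Rara_6 in untreated cells, -0.60 for Rarg_7, -1.12 for Crabp1_5 and -1.76 for Crabp2_8 at 1 h, -0.65 for Crabp2_7 and -0.70 for Cyp26b1_10 after 8 h, and -1.02 for Crabp2_8 in untreated cells. The cause was not tested. Ranks by pileup move little for strong regions, and depth, lowest at 8 h, limits which weak peaks passed the authors' threshold.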
